A study of Mus musculus with 8 samples.

Results

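The 9 genes described here belong to the TGF-beta pathway. They are the ligand genes Tgfb1, Tgfb2 and Tgfb3, the receptor genes Tgfbr1 and Tgfbr2, the signal carrier Smad3, the feedback inhibitors Smad7 and Pmepa1, and the matrix gene Ltbp2, 9 of 26642 rows of the count table. They were chosen by gene symbol, with earlier results of these data known. Messenger RNA was sequenced from CT26, a mouse colon carcinoma line grown in RPMI medium with serum. One genotype carried a knockout of Tead1 and Tead4 (4 libraries), and the other was unedited and is called WT (4 libraries). Tead1 and Tead4 encode transcription factors through which YAP and TAZ act at the end of the Hippo pathway. The labels do not say which part of either gene was edited, whether the knockout cells were 1 clone or several, or whether each library had its own culture. A p-value therefore reflects the spread of these libraries alone, which may be technical.

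TGF-beta is secreted as a latent complex with its own propeptide, which latent TGF-beta binding proteins tie to the matrix, and it has to be released before it can signal. The active ligand binds the type II receptor (Tgfbr2), which phosphorylates the type I receptor (Tgfbr1), and that kinase phosphorylates Smad2 and Smad3. Together with Smad4 these enter the nucleus and switch on target genes, among them Smad7 and Pmepa1, whose products damp the signal. In colon epithelium the pathway restrains growth, and in carcinoma cells it is also known for matrix production and for the change to a mesenchymal state.

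Total counts per library lay between 29679405 and 32774905. Levels are CPM, counts per 1000000 counts of the effective library size, and differences are log2 fold changes of knockout over WT with a standard error (SE). Tead1 averaged 67.5 ± 12.4 CPM in knockout libraries and 206 ± 80.8 CPM in WT (SD, n = 4 each), and Tead4 29.3 ± 6.08 against 47.8 ± 12.2 CPM, with overlapping ranges for Tead4. Knockout replicate 1 stood apart with 14345 rows above 0, against 17759 to 17948 in the other knockout libraries and 14566 to 15430 in WT. WT replicates 1 and 4, and likewise 2 and 3, were much closer to each other (chi-square per degree of freedom 34.7 and 35.0) than the other WT pairs (201 to 242). The labels do not say what the members of such a pair have in common. Of 10 epithelial markers, Krt8, Krt18 (69.9 to 88.8 CPM in knockout libraries, 36.2 to 42.8 in WT) and Krt20 were high enough to be tested, while Epcam was at 0 in every library and Cdh1 and Vil1 had at most 5 and 7 counts. Krt8 stood at only 0.790 to 1.00 CPM in knockout libraries and 0 to 0.497 CPM in WT. The label of colon carcinoma is that of the cell line, and few of the listed epithelial markers were high enough to be tested. The 10 listed fibroblast markers were mixed. Col1a1 and Col1a2 were high in all 8 libraries, while Thy1, Acta2 and Lum had at most 2, 7 and 16 counts. Dcn and Fap had at most 4 and 2 counts in WT. Of 8 macrophage markers 4 were tested and 3 rose at an adjusted p under 0.05 in edgeR (75%, beside 20.9% of all rows). These were Cd14, Cd68 and Lyz2 (at most 11 counts in WT), while Mrc1 was not called (log2 fold change -0.94). Lyz2 was high enough to be tested only through the knockout libraries, so its call could only be an increase. The summed level of the 8 was 58.1 to 83.0 CPM in knockout libraries and 23.1 to 39.4 CPM in WT. Most of it was Cd14, at 47.0 to 67.5 and 17.5 to 37.0 CPM. Adgre1 was at 0 throughout, and Ptprc, Itgam and Csf1r had at most 3, 4 and 6 counts. None of the 6 T cell markers in the table was high enough to be tested. In bulk RNA, fewer cells of a type and less RNA per cell cannot be told apart.

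All 9 genes passed the filter on low counts. Tgfb2 did so only through the knockout libraries, so it could only have been called as an increase. Smad3, Tgfb3 and Tgfbr2 rose in knockout libraries, Pmepa1 and Ltbp2 fell, and Tgfb1, Tgfb2, Tgfbr1 and Smad7 did not pass the test. Thus 5 of 9 (55.6%) had an adjusted p under 0.05 in edgeR's quasi-likelihood test, beside 41.6% of all 13265 rows tested. The 3 increases stand beside 20.9% of all rows and the 2 decreases beside 20.6%. The ranges of the genotypes were apart for 4 of the 9 genes, Tgfb3, Tgfbr2, Smad3 and Ltbp2, beside 40.7% of all rows. The median log2 fold change was 0.33 over the 9 genes and 0.02 over all rows. Since the genes were chosen with earlier results of these data known, these shares and medians describe them and test nothing.

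**Figure D1:**
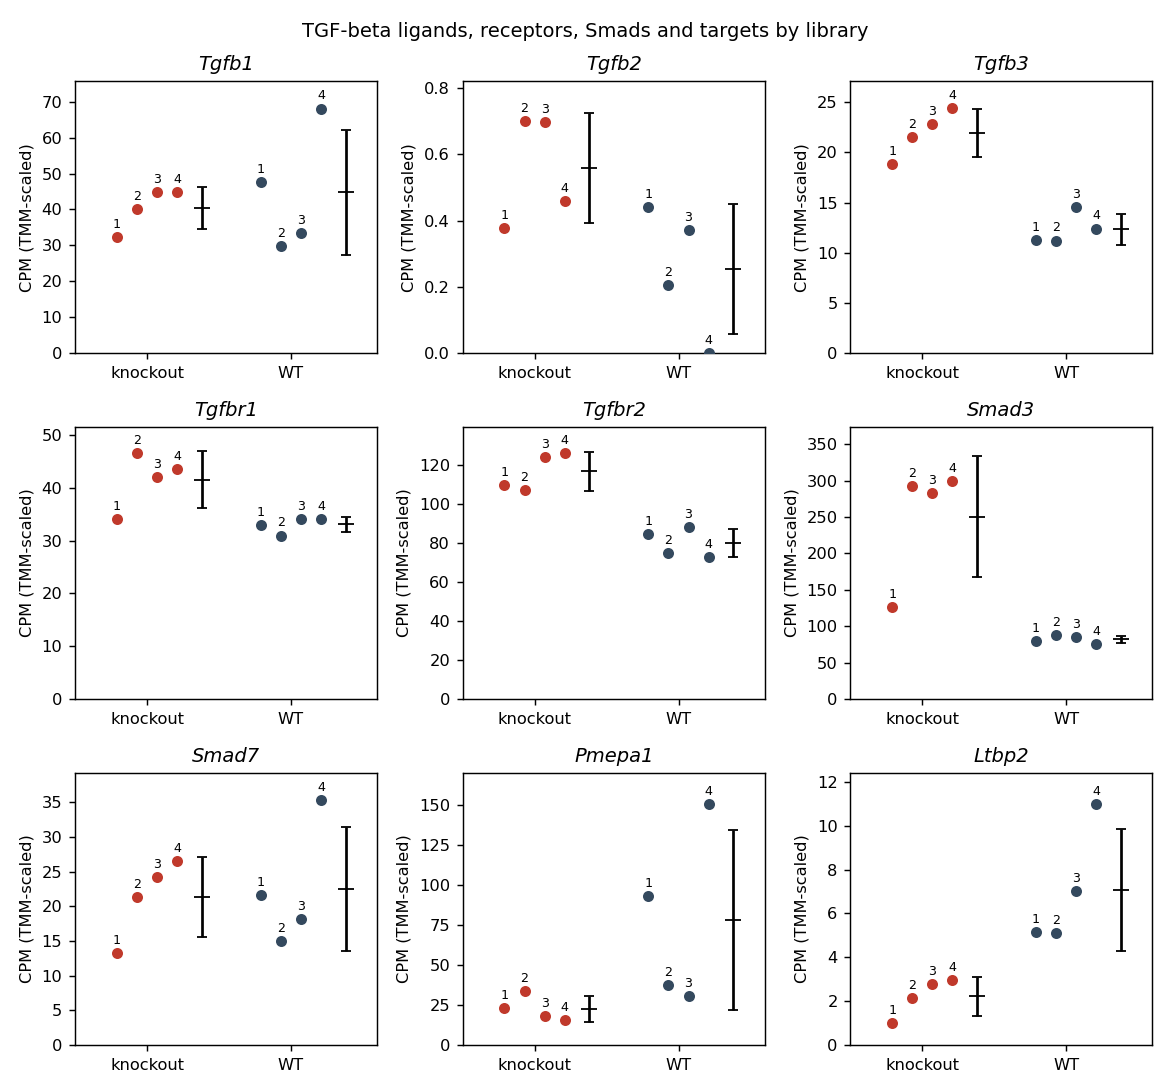
CPM of the 9 genes (y axes, linear, from 0) in knockout libraries (red) and WT libraries (dark blue), each point a library with its replicate number, and mean ± SD beside it in black (n = 4 each). Smad3 stands at 126 CPM in knockout replicate 1 and at 283 to 299 CPM in the other knockout libraries, all above the WT libraries at 76.0 to 87.6 CPM, and WT replicates 1 and 4 are the highest points for Pmepa1.

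Promoters are shown for Smad3, Tgfbr2 and Ltbp2, the called genes with an entry in RefSeq's table on GRCm38.p6, so that the absence or presence of the binding letters of TEAD and SMAD factors can be read beside the changes. Each sequence runs 5′ to 3′ on the gene's own strand, from 250 bases before the RefSeq start up to that start. Bases that GENCODE annotates as exon are left out. Capitals mark the SMAD letters CAGAC on either strand. They cover chr9:63757995-63758244 (minus strand) for Smad3, chr9:116175364-116175613 (minus) for Tgfbr2 and chr12:84876533-84876741 (minus) for Ltbp2.
Smad3: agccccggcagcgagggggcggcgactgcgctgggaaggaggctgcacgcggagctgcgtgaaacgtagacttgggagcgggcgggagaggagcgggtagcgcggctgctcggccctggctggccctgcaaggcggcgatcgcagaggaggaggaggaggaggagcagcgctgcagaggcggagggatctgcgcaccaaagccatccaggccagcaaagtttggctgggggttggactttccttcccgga
Tgfbr2: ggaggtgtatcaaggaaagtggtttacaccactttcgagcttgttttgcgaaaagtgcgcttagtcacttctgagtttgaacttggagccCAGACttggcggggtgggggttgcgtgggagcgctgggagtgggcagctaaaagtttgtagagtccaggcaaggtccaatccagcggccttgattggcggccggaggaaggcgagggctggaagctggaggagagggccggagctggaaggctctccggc
Ltbp2: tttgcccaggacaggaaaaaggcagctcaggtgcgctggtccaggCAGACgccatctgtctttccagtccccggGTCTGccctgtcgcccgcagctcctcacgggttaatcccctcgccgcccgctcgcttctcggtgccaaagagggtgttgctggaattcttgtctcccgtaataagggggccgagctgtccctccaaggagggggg
The TEAD letters GGAATG and the AP-1 letters TGANTCA, searched on both strands, were found in none of these 3 windows, while 12.6% and 6.75% of 32851 promoter windows of 250 bases hold them. The SMAD letters occurred once for Tgfbr2, at 2 places for Ltbp2 and not for Smad3, and 42.2% of all windows hold them. No match overlapped another motif. Such letters are common, and a match does not mark a bound site. Of the other members, Tgfb1, Tgfb2 and Tgfbr1 had entries, and none of these windows held the TEAD letters. Tgfb3 and Pmepa1 had no entry, and Smad7 was not searched.

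Among the ligand genes only Tgfb3 passed the test. Tgfb3 (ENSMUSG00000021253; GRCm38 chromosome 12, 86056745 to 86079041, minus strand) stood at 18.8, 21.5, 22.9 and 24.4 CPM in knockout replicates 1 to 4 and at 11.3, 11.2, 14.5 and 12.4 CPM in WT replicates 1 to 4. Every knockout library was above every WT library. The means were 21.9 ± 2.37 and 12.4 ± 1.54 CPM (SD, n = 4 each), a 1.77-fold increase (log2 fold change 0.82, SE 0.16, edgeR adjusted p = 0.00402; exact permutation test, two-sided, p = 0.0286, the lowest that 70 assignments allow). Exons of 2 genes on the opposite strand, Gm37804 and Gm48008, overlap those of Tgfb3 by 163 and 257 bases, and it is not known whether strand was used in counting.

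Tgfb1 (ENSMUSG00000002603; chromosome 7, 25687002 to 25705077, plus strand), the ligand most studied in tumours, stood at 32.4, 40.0, 44.8 and 44.8 CPM in knockout libraries and at 47.5, 30.0, 33.4 and 68.1 CPM in WT. WT replicate 4 was the highest library and WT replicate 2 the lowest, so the WT range held the whole knockout range. The log2 fold change, -0.14 (SE 0.25, edgeR adjusted p = 0.674), was positive, 0.07 and 0.06, with library size only or upper-quartile factors as scaling. Tgfb2 (ENSMUSG00000039239; chromosome 1, 186622792 to 186705989, minus strand) was near the floor of detection. It had 12, 23, 24 and 15 counts in knockout libraries and 12, 6, 11 and 0 counts in WT. A count of 0 in WT replicate 4 allows a level of up to 0.106 CPM (3 counts). The means were 0.559 ± 0.165 and 0.254 ± 0.196 CPM (a log2 fold change of 1.13, SE 0.73, edgeR adjusted p = 0.234), with overlapping ranges, and it did not pass in any of the alternatives that tested the gene.

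The makeup of the ligand mRNA shifted from Tgfb1 towards Tgfb3. Per kilobase of annotated exon, Tgfb1 made up 53.3, 55.1, 56.4 and 54.9% of the summed level of the 3 ligand genes in knockout libraries and 73.4, 63.9, 60.3 and 78.6% in WT. No knockout library reached the lowest WT share, and the knockout libraries were closer together. The mean share was 54.9 ± 1.27% in knockout libraries and 69.1 ± 8.43% in WT (SD, n = 4 each; exact permutation test, two-sided, p = 0.0286, the lowest that 70 assignments allow). Tgfb3 made up 42.8 to 46.2% in knockout libraries and 21.4 to 39.1% in WT, and Tgfb2 0.489 to 0.839% and 0 to 0.594%. The share depends on the length assumed, since the exons of Tgfb1 add up to 5042 bases over all transcripts and to 2573 in the longest one. With the longest transcript of each gene the shares of Tgfb1 were 70.4 ± 1.06% and 81.2 ± 5.98% (exact permutation p = 0.0286). Without WT replicates 1 and 4 the difference was -7.20 percentage points in place of -14.1, and the smallest p that 2 WT libraries allow is 0.0667.

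**Figure D2:**
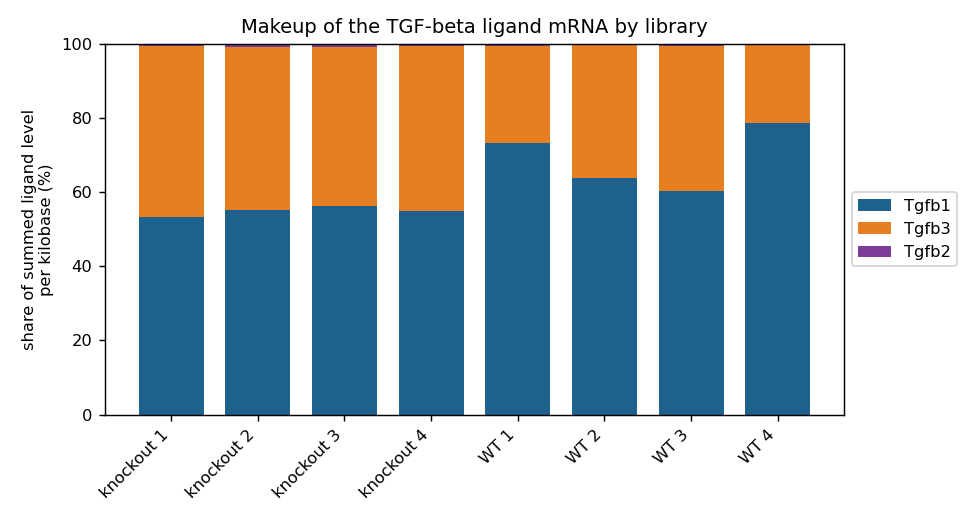
Share of Tgfb1 (blue), Tgfb3 (orange) and Tgfb2 (purple) in the summed ligand level per kilobase of exon (y axis, %), 1 bar per library, knockout libraries on the left. Tgfb1 takes 53.3 to 56.4% in knockout libraries and 60.3 to 78.6% in WT, and Tgfb2 is too small to be seen in most bars.

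Of the receptor pair, the type II receptor gene rose and the type I receptor gene did not pass the test. Tgfbr2 (ENSMUSG00000032440; chromosome 9, 116084293 to 116175360, minus strand), which encodes the subunit that binds the ligand, stood at 110, 107, 124 and 126 CPM in knockout libraries and at 84.5, 75.2, 88.1 and 73.0 CPM in WT. The genotypes did not overlap. The increase was 1.46-fold (log2 fold change 0.54, SE 0.13, edgeR adjusted p = 0.00931; exact permutation p = 0.0286). It was no longer called when the counts of the close WT pairs were summed, which leaves 2 WT units (log2 fold change 0.51, adjusted p = 0.0670). Tgfbr1 (ENSMUSG00000007613; chromosome 4, 47353222 to 47414931, plus strand), the kinase that phosphorylates the Smads, stood at 34.0, 46.6, 42.1 and 43.5 CPM in knockout libraries and at 33.0, 31.0, 34.1 and 34.1 CPM in WT. Knockout replicate 1 was level with WT and the other knockout libraries were above it. Its log2 fold change of 0.33 (SE 0.14, edgeR adjusted p = 0.0763) missed the threshold. It passed in 4 of 20 alternatives, at 0.40 without knockout replicate 1 (adjusted p = 0.0186), 0.52 with library size only (0.0262), 0.51 with upper-quartile factors (0.0210) and 0.41 with a minimum of 5 CPM in 4 libraries (0.0405). Per kilobase, Tgfbr2 was 2.57, 1.84, 2.36 and 2.31 times the level of Tgfbr1 in knockout libraries and 2.04, 1.94, 2.06 and 1.71 times in WT, so the ratios overlapped.

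Smad3 (ENSMUSG00000032402; chromosome 9, 63646767 to 63757994, minus strand), the receptor-regulated Smad that binds DNA directly, had the largest increase of the 5 called genes. It stood at 126, 293, 283 and 299 CPM in knockout libraries and at 79.6, 87.6, 85.1 and 76.0 CPM in WT. The WT libraries lay close together, and knockout replicate 1 stood between them and the other knockout libraries. The means were 250 ± 83.1 and 82.1 ± 5.25 CPM (SD, n = 4 each), a 3.05-fold increase (log2 fold change 1.61, SE 0.25, edgeR adjusted p = 0.00181; exact permutation p = 0.0286). Leaving out any 1 library kept it between 1.52 and 1.81 on the log2 scale, the highest without knockout replicate 1.

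Smad2 and Smad4 fell, at smaller size. Smad2, the second receptor-regulated Smad, averaged 55.6 ± 4.67 CPM in knockout libraries and 81.4 ± 17.7 CPM in WT (SD, n = 4 each; log2 fold change -0.55, edgeR adjusted p = 0.0292). Smad4, the common partner, averaged 80.5 ± 6.46 and 110 ± 8.29 CPM (-0.45, edgeR adjusted p = 0.0187). Of 20 alternatives, 10 and 8 ended these calls, among them library size only as scaling (adjusted p = 0.0730 and 0.149) and the replicate block (0.0536 and 0.0620). Without WT replicates 1 and 4, Smad2 was at -0.27 (adjusted p = 0.186) and Smad4 at -0.37 (0.0756). Without WT replicates 2 and 3 they were at -0.81 (adjusted p = 0.00292) and -0.55 (0.0131). Per kilobase, Smad3 was 3.27, 8.01, 8.83 and 8.99 times the level of Smad2 in knockout libraries and 1.35, 2.01, 2.12 and 1.22 times in WT. This ratio was computed after the values of both genes were seen, and it is given without a test. The lowest knockout ratio, in replicate 1, was above the highest WT ratio. Of 7 genes listed as Smad transducers and nuclear partners, 6 were tested, Smad3 rose and Smad2 and Smad4 fell (50% called, beside 41.6% of all rows). The acetyltransferase gene Ep300 (-0.71, adjusted p = 0.0594) and Zfyve9, which encodes the anchor SARA (-0.11, adjusted p = 0.571), did not pass. Ep300 passed in 4 of 20 alternatives, DESeq2 (adjusted p = 0.0378), without WT replicate 2 (0.0368), without WT replicate 3 (0.0248) and without both (-1.13, adjusted p = 0.00439), and it was -0.44 without WT replicate 1 and -0.17 without WT replicates 1 and 4.

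The 2 feedback inhibitors among the members differed from each other. Smad7 (ENSMUSG00000025880; chromosome 18, 75367529 to 75395935, plus strand), which blocks the type I receptor, stood at 13.3, 21.3, 24.3 and 26.5 CPM in knockout libraries and at 21.6, 15.0, 18.2 and 35.3 CPM in WT. The ranges overlapped widely, and the log2 fold change of -0.08 (SE 0.29, edgeR adjusted p = 0.855) was 0.14 and 0.13 with library size only or upper-quartile factors. Pmepa1 (ENSMUSG00000038400; chromosome 2, 173224458 to 173276533, minus strand), whose product keeps Smad2 and Smad3 from the receptor, stood at 23.0, 33.7, 17.9 and 15.7 CPM in knockout libraries and at 93.2, 37.4, 30.6 and 151 CPM in WT. WT replicates 1 and 4 were far above all other libraries, and knockout replicate 2 was above WT replicate 3. The means were 22.6 ± 8.03 and 78.0 ± 56.0 CPM (SD, n = 4 each; log2 fold change -1.79, SE 0.49, edgeR adjusted p = 0.0166; exact two-sided permutation p = 0.0571). The decrease rested on WT replicates 1 and 4. Without both, an alternative added after the values were seen, the log2 fold change was -0.61 and did not pass (adjusted p = 0.182), and without WT replicates 2 and 3 it was -2.45 (adjusted p = 0.00131). Leaving out WT replicate 4 alone gave -1.28 (adjusted p = 0.0394).

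Ltbp2 (ENSMUSG00000002020; chromosome 12, 84783212 to 84876532, minus strand) encodes a matrix protein of the family that binds latent TGF-beta, although LTBP2 itself is not known to bind it, and it is used as a TGF-beta responsive matrix gene. It stood at 1.01, 2.13, 2.76 and 2.96 CPM in knockout libraries and at 5.15, 5.09, 7.01 and 11.0 CPM in WT, from 32 to 97 counts and from 140 to 310 counts. Every knockout library was below every WT library. The means were 2.22 ± 0.879 and 7.06 ± 2.77 CPM (SD, n = 4 each), 3.18-fold lower in knockout libraries (log2 fold change -1.67, SE 0.39, edgeR adjusted p = 0.00877; exact permutation p = 0.0286). The call held under all 19 alternatives that tested the gene, at adjusted p up to 0.0473. Exons of D030025P21Rik, on the opposite strand, overlap those of Ltbp2 by 764 bases, and reads of both cannot be told apart if strand was not used.

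Levels of different genes are compared per kilobase of exon (CPM per kilobase). In knockout libraries Smad3 was highest at 45.1 ± 15.0, above Tgfbr2 at 14.3 ± 1.20, which was above Tgfb1 at 8.04 ± 1.16 (SD, n = 4). The next genes, Tgfb3 (6.47 ± 0.700), Tgfbr1 (6.36 ± 0.820), Smad7 (4.72 ± 1.28) and Pmepa1 (4.60 ± 1.63), overlapped with their neighbours in this order, Tgfb3 with Tgfb1 too. Ltbp2 (0.271 ± 0.107) and Tgfb2 (0.0965 ± 0.0285) were far lower. In WT the order was led by Pmepa1 at 15.9 ± 11.4 and Smad3 at 14.8 ± 0.947, which overlapped. Pmepa1 led through WT replicates 1 and 4 (19.0 and 30.7), and in replicates 2 and 3 it stood at 7.62 and 6.22, below Smad3 (15.8 and 15.4) and Tgfbr2 (9.18 and 10.8). Tgfbr2 (9.79 ± 0.884) and Tgfb1 (8.87 ± 3.43) overlapped each other, as did Tgfbr1 (5.06 ± 0.228), Smad7 (4.98 ± 1.98) and Tgfb3 (3.66 ± 0.454) in their neighbouring pairs, above Ltbp2 (0.863 ± 0.339) and Tgfb2 (0.0439 ± 0.0339). The order also depends on the length, an alternative added after the values were seen. Per kilobase of the longest transcript, Tgfb1 stood at 15.7 ± 2.27 in knockout libraries and 17.4 ± 6.73 in WT. With that length it lay above Tgfbr2 on average, at 14.4 ± 1.21 and 9.91 ± 0.894, with overlapping ranges in knockout libraries, and its WT mean was above those of Pmepa1 (17.2 ± 12.3) and Smad3 (16.1 ± 1.03), with overlapping ranges. The order of the libraries differed between the genes, although 7 of the 9 had their lowest knockout value in replicate 1. WT replicates 1 and 4 were the 2 highest WT libraries for 3 of the 9, Tgfb1, Smad7 and Pmepa1.

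Around the members, 6 lists of the pathway held 89 further genes, of which 70 were tested, 15 rose and 8 fell (32.9% called, beside 41.6% of all rows). With the members counted, 76 genes were tested. Of these 22.4% rose, beside 20.9% of all rows, and 13.2% fell, beside 20.6%. Counts of single lists include the members in them. In the list of latent storage and activation, 12 of 16 genes were tested. Of these, 4 rose (33.3%, beside 20.9% of all rows), and Ltbp2 alone fell (8.33%, beside 20.6%). The 41.7% called was near the 41.6% of all rows, and the median log2 fold change was 0.25. Thbs1, which encodes thrombospondin-1, an activator of the latent complex, averaged 176 ± 67.7 CPM in knockout libraries and 75.4 ± 11.6 CPM in WT (a log2 fold change of 1.22, SE 0.25, edgeR adjusted p = 0.00536). Ltbp3, which encodes a binding protein of the latent complex, averaged 370 ± 63.4 and 209 ± 46.2 CPM (0.83, adjusted p = 0.00994). Without WT replicates 1 and 4 neither passed (Thbs1 1.14, adjusted p = 0.0570; Ltbp3 0.59, adjusted p = 0.0782), and Ltbp3 did not pass with the WT pairs summed (0.79, adjusted p = 0.0536). The integrin gene Itgb5 rose by 0.80 (adjusted p = 0.0236), a call that 5 of 20 alternatives ended, among them leaving out WT replicate 1, WT replicate 4 or knockout replicate 2. Dcn, which encodes decorin, a matrix proteoglycan that binds TGF-beta, had 75, 165, 496 and 311 counts in knockout libraries and 0, 0, 0 and 4 counts in WT. It passed the filter on low counts only through the knockout libraries, so its call (edgeR adjusted p = 0.000803) could only be an increase. It is counted among the 4 that rose. Dcn is also a fibroblast marker. Of 10 such markers 6 were tested and 4 rose (66.7%, beside 20.9% of all rows). Beside Dcn these were Col3a1 (log2 fold change 2.19), Pdgfra (2.16) and Pdpn (1.47), while Col1a1 (0.12) and Col1a2 (0.10) did not pass. The summed level of the markers was 1677 to 2324 CPM in knockout libraries and 1409 to 2082 CPM in WT. Most of it was Col1a2 (1376 to 1710 and 1117 to 1777 CPM), so the sum hardly reflects the markers that rose. The part of other cells in this was not tested.

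Of 9 receptor and co-receptor genes, 8 were tested, 4 rose (50%, beside 20.9% of all rows) and none fell (beside 20.6% of all rows) at an adjusted p under 0.05 in edgeR (none at an unadjusted p under 0.05 either, and none by DESeq2), with a median log2 fold change of 0.60. Tgfbr3, which encodes the co-receptor betaglycan that presents ligand, averaged 115 ± 35.3 CPM in knockout libraries and 55.0 ± 9.70 CPM in WT (1.07, SE 0.24, adjusted p = 0.00792), with knockout replicate 1 at 65.9 CPM inside the WT range. It did not pass with the WT pairs summed (1.03, adjusted p = 0.0577) or without WT replicates 2 and 3 (0.85, adjusted p = 0.0558). Acvrl1, which encodes the type I receptor ALK1 known from endothelium, averaged 69.5 ± 6.47 and 36.5 ± 4.18 CPM (0.93, SE 0.14, adjusted p = 0.00152). Eng, which encodes the co-receptor endoglin, averaged 8.74 ± 1.31 and 4.54 ± 1.03 CPM (0.94, adjusted p = 0.0102). The remaining increase was that of the member Tgfbr2, described above. The activin receptor gene Acvr2b, with 0.65, did not pass (adjusted p = 0.0897), but did without knockout replicate 1 (0.78, adjusted p = 0.0348) and without WT replicates 2 and 3 (0.95, adjusted p = 0.0470). Without WT replicates 1 and 4 it was 0.38. Of the 6 endothelial markers only Vwf was high enough to be tested. Their summed level was 1.30 to 11.1 CPM in knockout libraries and 0 to 0.438 CPM in WT. In knockout libraries nearly all of it was Vwf (1.30 to 10.9 CPM). Pecam1 and Cdh5 had at most 4 and 3 counts, and Kdr and Emcn were at 0 throughout.

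**Figure D3:**
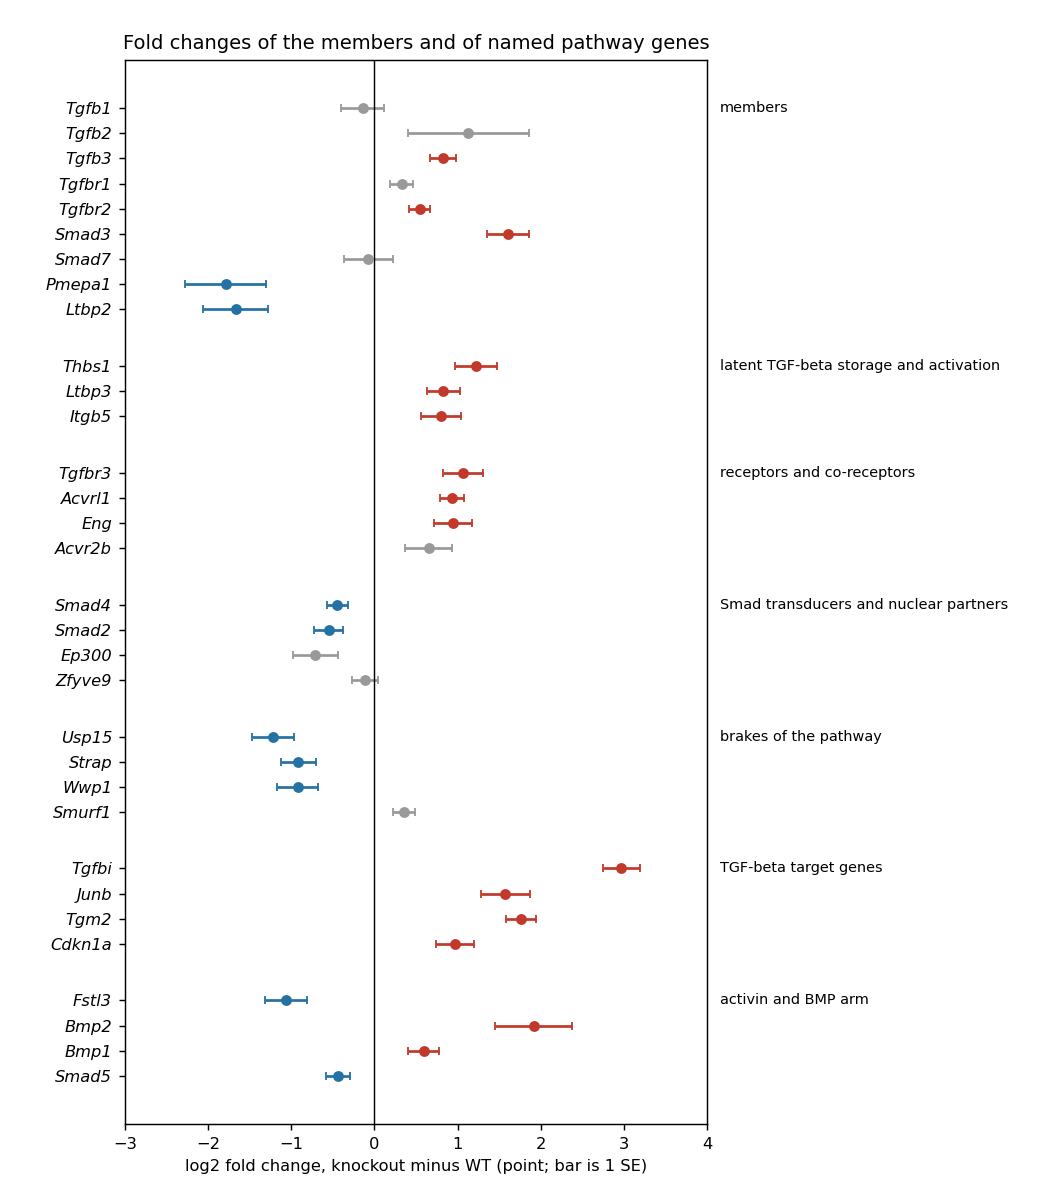
Log2 fold change, knockout minus WT (x axis), of the 9 members and of named genes of 6 pathway lists, points with bars of 1 SE, red where higher and blue where lower at an adjusted p under 0.05, grey where not called. Tgfbr2, Tgfbr3, Acvrl1 and Eng lie to the right of 0, while Pmepa1 (-1.79), Ltbp2 (-1.67) and Usp15 (-1.22) lie to the left (Dcn, near 0 counts in WT, is left out).

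In the list of inhibitors 15 of 16 genes were tested, 4 fell (26.7%, beside 20.6% of all rows) and none rose (beside 20.9%) at an adjusted p under 0.05 in edgeR (1 of those higher in knockout libraries, Smurf1, had an unadjusted p under 0.05, and DESeq2 called it), at a median log2 fold change of -0.22. The increase of Smurf1, a ubiquitin ligase gene, was 0.36 (adjusted p = 0.0561) and passed in 8 of 20 alternatives, among them DESeq2 (adjusted p = 0.0189) and library size only (0.0111). Beside Pmepa1 the decreases were those of Usp15, Strap and Wwp1. Strap, which encodes a partner of Smad7 at the receptor, averaged 278 ± 86.1 CPM in knockout libraries and 523 ± 41.8 CPM in WT (-0.91, SE 0.21, edgeR adjusted p = 0.00805). That call was lost with the WT pairs summed (-0.95, adjusted p = 0.0501) and without WT replicates 1 and 4 (-0.85, adjusted p = 0.0602). Wwp1, a ubiquitin ligase gene of the Smad7 route, fell by 0.92 (adjusted p = 0.0151), and without WT replicates 1 and 4 it was -0.41 and did not pass (adjusted p = 0.0934). Usp15 fell by 1.22 (SE 0.25, adjusted p = 0.00486), or by 0.79 without WT replicates 1 and 4 (adjusted p = 0.0437). Its product is a deubiquitinase known to sustain the pathway, so it is no inhibitor despite its place in the list. Without Usp15 the share of the list that fell would be lower than 26.7% and nearer to the 20.6% of all rows.

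Of 28 listed target genes, 24 were tested, 5 rose (20.8%, beside 20.9% of all rows) and 2, Pmepa1 and Ltbp2, fell. The 29.2% called is below the 41.6% of all rows, and the median log2 fold change was 0.026. Tgfbi, a matrix protein gene named for its induction by TGF-beta, averaged 16.4 ± 2.19 CPM in knockout libraries and 2.10 ± 0.412 CPM in WT (2.97, SE 0.22, edgeR adjusted p = 0.000119). Tgm2, the tissue transglutaminase gene, averaged 151 ± 10.5 and 44.7 ± 10.7 CPM (1.76, SE 0.18, adjusted p = 0.000392). Junb, an AP-1 subunit gene, rose by 1.57 (SE 0.30, adjusted p = 0.0036) and Cdkn1a, the p21 cell cycle inhibitor gene, by 0.97 (SE 0.23, adjusted p = 0.00868). These 4 calls held under all 20 alternatives. The fifth increase, named after its value was seen, was Tsc22d1 (0.76, adjusted p = 0.0107), which did not pass with the WT pairs summed (0.72, adjusted p = 0.0650) or without WT replicates 1 and 4 (0.74, adjusted p = 0.0526). Some genes commonly used as readouts, also named after their values were seen, did not pass: Skil at -0.22 (0.370), Klf10 at 0.27 (0.678) and Ccn2, listed under its older symbol Ctgf, at 0.47 (0.0650). Ccn2 passed in 5 of 20 alternatives, all with a higher knockout level.

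**Figure D4:**
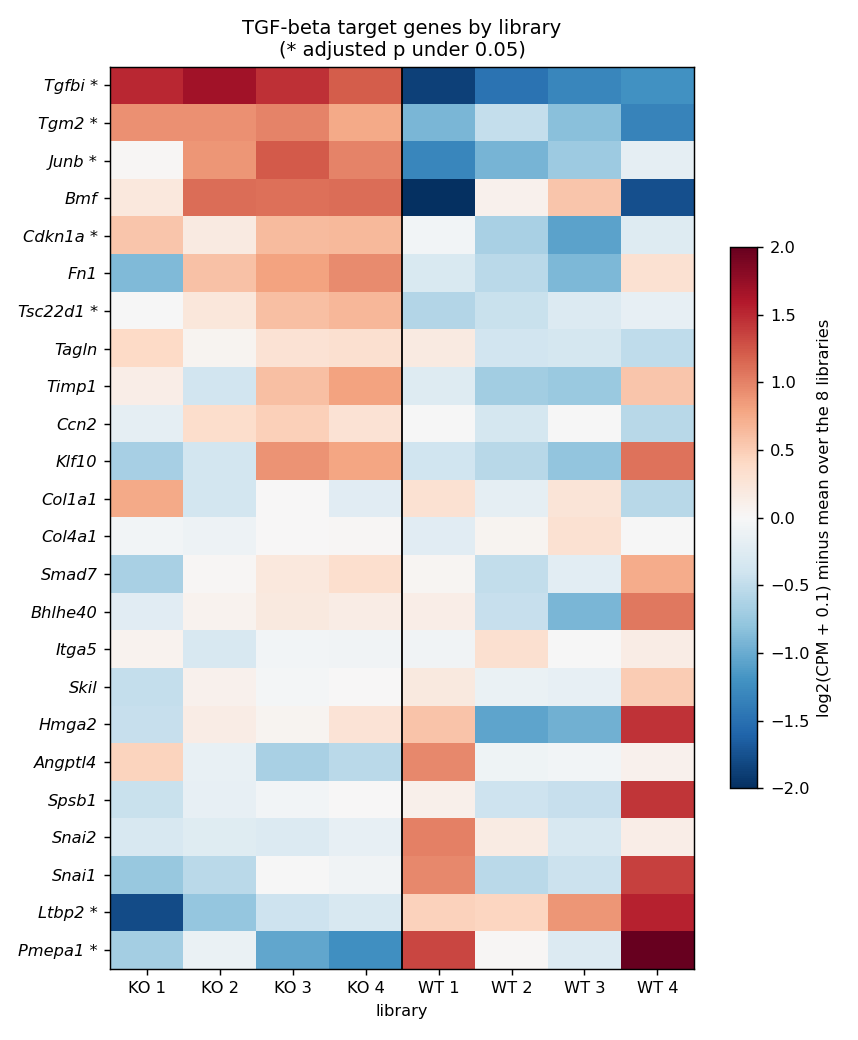
Level of the 24 tested TGF-beta target genes in each library (columns, knockout on the left), as log2(CPM + 0.1) minus the gene's mean over the 8 libraries, red high and blue low, an asterisk marking an adjusted p under 0.05. Tgfbi and Tgm2 are high in all knockout libraries, and Pmepa1 is highest in WT replicates 1 and 4 at 93.2 and 151 CPM.

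In the related activin and BMP arm 15 of 23 genes were tested, 3 rose and 3 fell (40.0% called, near the 41.6% of all rows), at a median log2 fold change of 0.02. Bmp2, a ligand gene, averaged 15.4 ± 7.44 CPM in knockout libraries and 4.09 ± 1.85 CPM in WT (1.91, SE 0.46, edgeR adjusted p = 0.00986), with knockout replicate 1 at 5.34 CPM inside the WT range. It did not pass with the WT pairs summed (1.87, adjusted p = 0.0570) or without WT replicates 2 and 3 (1.43, adjusted p = 0.0636). Bmp1, a metalloproteinase gene that is no ligand despite its name, rose by 0.59 (adjusted p = 0.0303, ended by 7 of 20 alternatives). Fstl3, which encodes an activin antagonist, averaged 16.6 ± 4.24 and 34.7 ± 10.0 CPM (-1.06, adjusted p = 0.00964), and without WT replicates 1 and 4 the difference was -0.67 and did not pass (adjusted p = 0.0913). The BMP Smad gene Smad5 changed by -0.44 (adjusted p = 0.0392), and 13 of 20 alternatives ended that call. The remaining calls, named after their values were seen, were Chrd (2.46, adjusted p = 0.0464) and Smad1 (-0.57, adjusted p = 0.0441), ended by 8 and 15 of 20 alternatives. These included leaving out each of 6 libraries in turn for Chrd and each of 6 for Smad1. Chrd had 31, 106, 133 and 90 counts in knockout libraries and 4, 33, 20 and 0 in WT. Like Dcn, it passed the filter on low counts only through the knockout libraries, so its call could only be an increase. It is counted among the 3 that rose.

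Genes whose log2 CPM over the 8 libraries was most like that of a called member are given as a description, since with 2 genotypes any gene that differs between them correlates. Over 9073 annotated genes averaging 10 CPM or more, Smad3 was closest to Klhl7 and Crebrf (Pearson r = 0.997 and 0.996), Tgfb3 to Sdc4 and Wnt10a (0.992 and 0.986), and Tgfbr2 to St3gal1 and Cxcl1 (0.978 and 0.976). Pmepa1 was closest to Dcakd and Bmi1 (0.998 and 0.983), and Ltbp2 to Gpatch2 and Btbd1 (0.962 and 0.960).

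**Figure D5:**
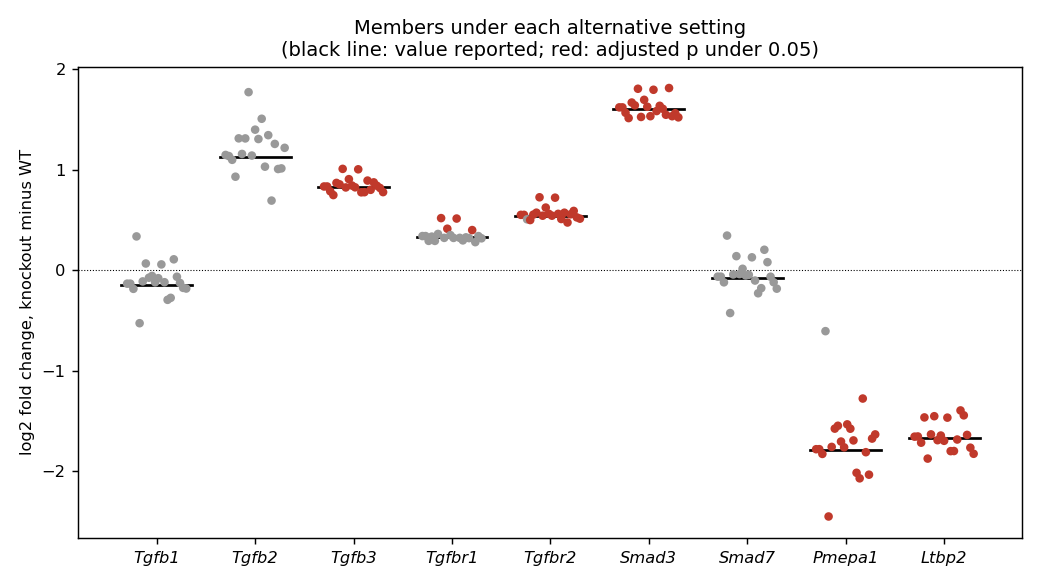
Log2 fold change, knockout minus WT (y axis), of the 9 genes under each alternative setting (points, red where the adjusted p is under 0.05, grey where not), the black line being the value reported. Smad3 and Tgfb3 pass in every setting, and Pmepa1 has a grey point at -0.61, from the fit without WT replicates 1 and 4.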

How the data were processed

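The 8 libraries, 4 per genotype, were grouped by their titles. The deposited values are raw read counts, whole numbers and not normalized, in 2 tables that hold the same values, and 1 table was used (26642 rows, 22036 of them annotated genes). The submitters' processing notes name HISAT2, StringTie and GRCm38 and give no versions. Neither the counting program nor its use of strand is stated in these sources. Rows were kept by filterByExpr (count of 10, total of 15). TMM factors set the scaling, and all kept rows were tested together with edgeR 4.0.16 in R 4.3.3 (glmQLFit and glmQLFTest, two-sided, knockout minus WT, no covariates), with Benjamini-Hochberg adjustment and a threshold of 0.05. The SE is the log2 fold change divided by the square root of F. Floors of 3 counts and CPM were computed here and cover counting error only. Levels per kilobase used the union of exons in GENCODE M21, as did coordinates. The test was checked on simulated counts.

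The 9 members and the pathway and marker lists were chosen with earlier results of these data known. One gene of the target list is not reported here. Named genes are the members, Tead1 and Tead4, and from each of 6 pathway lists the called genes with an absolute log2 fold change of at least 1 and a mean of at least 5 CPM, plus up to 4 with the smallest p. The 2 most similar genes are named for each called member. Alternatives were library size only, upper-quartile factors or those of DESeq2 as scaling; no filter or 5 CPM in 4 libraries; annotated genes only; DESeq2 1.42.0 and limma-voom (limma 3.58.1); the replicate number as a block; WT replicates 1 and 4, and 2 and 3, summed; and each library left out. Leaving out those WT pairs was added after the data were seen.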

Additional observations from a re-analysis of the deposited data

Results flagged for a closer look

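Smad3 in knockout replicate 1 stood far from the other knockout libraries, at 126 CPM against 283 to 299 CPM, a gap of 0.909 of the knockout range, above Dixon's 95% critical value for 4 samples. Of 18 groups of 4 values (9 genes in 2 genotypes) it was the only one to pass that limit, and chance alone puts about 1 in 20 groups past it. The same library had fewer rows above 0 (14345, against 17759 to 17948), and the part of this in the Smad3 value was not tested. Without it the log2 fold change of Smad3 was 1.81.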

How the results depend on the processing

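The number of members called was 5 and lay between 5 and 6 with 1 library left out, and between 4 and 6 under the other alternatives. The share of all rows called was 41.6%. It lay between 28.5 and 49.4% with 1 library left out, and between 21.5 and 48.0% under the other alternatives. Calls for Tgfb3 and Smad3 held under all 20. That for Tgfbr2 was lost with the WT pairs summed (0.51), and that for Pmepa1 without WT replicates 1 and 4 (-0.61); Ltbp2 could not be tested at a minimum of 5 CPM in 4 libraries. With 1 library left out the log2 fold changes lay between 0.78 and 0.89 for Tgfb3, 0.48 and 0.59 for Tgfbr2, 1.52 and 1.81 for Smad3, -2.07 and -1.28 for Pmepa1 and -1.83 and -1.40 for Ltbp2. Tgfb1, Smad7, Zfyve9, Skil and Klf10, none of them called, changed sign. Tgfb1 was at 0.067 with library size only, 0.058 with upper-quartile factors, 0.11 without WT replicate 4 and 0.34 without WT replicates 1 and 4 (range -0.29 to 0.11 with 1 library left out). Smad7 was at 0.14, 0.13, 0.20 and 0.35 under the same settings, 0.015 with the 5 CPM filter and 0.080 without knockout replicate 1 (range -0.23 to 0.20). Zfyve9 was at 0.071 with library size only and 0.066 with upper-quartile factors. Without WT replicates 1 and 4, Skil was at 0.036, and without 2 and 3 Klf10 was at -0.22; the cause was not tested. Both scalings moved the median of all rows to 0.20 and the share of higher among called rows to 63.5 and 64.6%, beside 50.4%. Of the pathway list genes 27 were called (20 to 34 with 1 library left out). With the WT pairs summed 14 were called, where fewer WT units remain and 21.8% of all rows were called. The difference in the share of Tgfb1 lay between -17.1 and -11.0 points with 1 library left out; p was 0.0571 without any 1 knockout library. It was -14.3 with the pairs summed, -7.20 without WT replicates 1 and 4 and -21.1 without 2 and 3, where p cannot go below 0.0667. The replicate numbers did not pair the libraries (correlations of same-numbered deviations from -0.0317 to -0.00276, and no library correlated best with its own number). With the replicate block 5 members and 24 pathway list genes were called, beside 35.3% of all rows. A level under 3 counts, or 0.0873 to 0.110 CPM, cannot be told from 0, which bears on Tgfb2.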
